A study of Mus musculus with 6 samples.

Results

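A set of 10 genes that govern the epithelial-mesenchymal transition was followed across the sorted fractions of a mouse embryonic stem cell (ESC) culture. They were the rows of the deposited count table with the symbols Snai1, Snai2, Zeb1, Zeb2, Twist1, Epcam, Grhl2, Esrp1, Esrp2 and Ovol2, which is 10 of 38561 genes. All 10 symbols were found, once each. The cells, from strain 129X1/SvJ x 129S1/Sv, were undifferentiated ESCs at passages 13 to 17, kept without feeder cells on gelatin in serum replacement medium with leukaemia inhibitory factor. Cells were stained for PECAM1, an adhesion molecule of undifferentiated ESCs, and PDGFRa, a growth factor receptor carried by primitive endoderm, and sorted. RNA of 100000 sorted events per library was amplified and sequenced from 3 fractions: PDGFRa-only (PECAM1minPDGFRaplus), double-positive (PECAM1plusPDGFRaplus) and PECAM1-only (PECAM1plusPDGFRamin). Each fraction had 2 libraries, called Exp1 and Exp2 in the labels and 1 and 2 here. The name points to 2 experiments across the fractions, but the labels do not define it as a culture, day or sort, so each p measures the spread between these libraries and may be technical. The fractions came from 1 kind of culture, and the labels name no treatment that differs between them.

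The epithelial-mesenchymal transition is the passage of cells from an adherent, polarised sheet to a loose, motile state. SNAIL, ZEB and TWIST proteins are transcription factors that drive it, in part by repressing Cdh1, the gene of the adhesion protein E-cadherin. Grhl2 and Ovol2 encode transcription factors that maintain the epithelial state, Esrp1 and Esrp2 encode RNA-binding proteins that set epithelial splicing, and Epcam encodes an epithelial surface glycoprotein that ESCs also carry. Primitive endoderm is an epithelium that separates from the pluripotent epiblast before implantation, and parietal endoderm later leaves it by a transition of this kind.

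Totals were 4809661 to 7273669 counts per library, and 17811 to 20510 genes had a count. Fractions matched their labels in marker genes: the summed level of 9 primitive endoderm markers was 24500 to 25000 CPM (counts scaled to a common library size) in PDGFRa-only libraries, 16000 to 17100 CPM in double-positive libraries and 75.6 to 95.8 CPM in PECAM1-only libraries. The sum of 9 pluripotency markers was 199 to 234, 502 to 588 and 1420 to 1440 CPM, in the same order. In PDGFRa-only cells most of that sum was Tfcp2l1 (85.7 CPM) and Pou5f1 (76.7 CPM), while Nanog had 0.451 against 199 CPM in PECAM1-only cells. Pou5f1 gave no call between double-positive cells and either other fraction. These lists include the genes of the sort markers, so that part of the match was set by the sort. Pdgfra had 557 CPM in PDGFRa-only cells and Pecam1 154 CPM in PECAM1-only cells. Most of the primitive endoderm sum was Lama1, Col4a1, Cubn and Dab2. In bulk RNA, fewer cells of a type and less RNA per cell cannot be told apart, for the double-positive fraction in particular. Of 10 regulators, 9 passed the filter on low counts, and Snai2 did not.

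Start regions of Snai1 and Epcam are shown because they belong to the regulators with the largest and the smallest difference between PDGFRa-only and PECAM1-only cells, and because the proteins studied here bind short motifs of this kind. SNAIL and ZEB proteins bind the E-box CAGGTG, and grainyhead factors such as GRHL2 bind a site centred on ACCGGT. Sequences run from 250 bases before to 50 bases after the gene's start (RefSeq, GRCm38.p6), 5′ to 3′ on the gene's strand, and capitals mark CAGGTG or its complement CACCTG, and ACCGGT.
Snai1, chr2:167537945-167538244, plus strand: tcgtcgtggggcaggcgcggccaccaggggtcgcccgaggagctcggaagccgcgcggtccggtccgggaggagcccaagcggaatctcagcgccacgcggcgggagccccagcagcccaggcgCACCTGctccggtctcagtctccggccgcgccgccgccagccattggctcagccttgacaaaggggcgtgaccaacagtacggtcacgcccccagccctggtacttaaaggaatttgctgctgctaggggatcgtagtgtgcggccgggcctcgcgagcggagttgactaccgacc
Epcam, chr17:87635729-87636028, plus strand: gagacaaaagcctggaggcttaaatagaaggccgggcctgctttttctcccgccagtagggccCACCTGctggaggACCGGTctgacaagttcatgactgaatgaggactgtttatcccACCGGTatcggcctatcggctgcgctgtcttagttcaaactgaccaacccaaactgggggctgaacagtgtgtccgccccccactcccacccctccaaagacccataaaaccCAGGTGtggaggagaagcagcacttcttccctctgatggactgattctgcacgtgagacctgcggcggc
The Snai1 window held 1 E-box, 126 bases before the start. The Epcam window held 2 E-boxes, 187 and 19 bases before the start, and 2 grainyhead centres, 174 and 131 bases before it. The motifs do not overlap each other in either window. Both strands of 32851 windows of 300 bases were searched, and 20.2% held the E-box and 2.33% the grainyhead centre. Windows for 5 of the 10 regulators were in the table used, and those of Zeb2, Twist1 and Ovol2 held neither motif. The GATA motif AGATAA, present in 11.2% of windows, was in no window of these 5 genes. A match is a description of the letters and does not show binding.

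The transcription factors that drive the transition did not move together. Snai1 was abundant in both PDGFRa-positive fractions and nearly absent from PECAM1-only cells, whereas Zeb1 and Zeb2 were lower in PDGFRa-only cells than in either other fraction. Zeb1 was also lower in double-positive than in PECAM1-only cells, a step that was not called for Zeb2. Twist1 and Snai2 were at the edge of detection throughout. Per kilobase of exon, Snai1 had 29.4 CPM in the PDGFRa-only fraction against 0.812 for Zeb1, and Zeb1 had 7.94 CPM per kilobase in the PECAM1-only fraction against 0.183 for Snai1. Length was the union of exons over all annotated transcripts (12 for Zeb1, 1 for Snai1), so levels of different genes compare only roughly.

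Snai1 (ENSMUSG00000042821, chromosome 2, 167538195 to 167542814) had 57.5 and 37.8 CPM in PDGFRa-only libraries 1 and 2, 20.0 and 28.3 CPM in double-positive libraries, and 0.437 and 0.157 CPM in PECAM1-only libraries. The last values rest on 3 and 1 counts. Every PDGFRa-positive library lay above every PECAM1-only library, and the 3 fractions did not overlap. The log2 fold change between PDGFRa-only and PECAM1-only cells was 7.20 (SE 0.44, adjusted p = 9.57e-12, edgeR quasi-likelihood test, n = 2 per fraction). As a ratio of counts this was 151-fold, with an exact 95% counting interval of 58.7 to 558. Double-positive cells were higher than PECAM1-only cells by 6.23 (SE 0.46, adjusted p = 5.17e-10, edgeR). PDGFRa-only cells were higher than double-positive cells by 0.97 (SE 0.24, adjusted p = 0.00689, edgeR). That last call was lost without PDGFRa-only library 1 (0.64, adjusted p = 0.0687) and without double-positive library 1 (0.74, adjusted p = 0.141), and in the deposited RPKM values (reads scaled to length and library size; 0.71, adjusted p = 0.136, limma with a pseudocount of 1). The 2 double-positive libraries stood 41.6% and 59.2% of the way from the PECAM1-only to the PDGFRa-only mean on the CPM scale, and 77.3% and 86.6% on the log2(CPM + 1) scale.

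Snai2 (ENSMUSG00000022676, chromosome 16, 14705852 to 14709385), the paralog of Snai1 best known from neural crest, had 1 count in each PDGFRa-only library, 6 and 3 in double-positive libraries and 5 in each PECAM1-only library. These 21 counts were too few for the main test. PECAM1-only cells had 4.18 times the Snai2 level of PDGFRa-only cells, with a counting interval of 0.891 to 39.2 that spans no difference. Snai2 thus made up 0.389% and 0.398% of the counts of both genes in PDGFRa-only libraries, 4.51% and 1.63% in double-positive libraries, and 62.5% and 83.3% in PECAM1-only libraries, where the pair had only 8 and 6 counts in all.

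Zeb1 (ENSMUSG00000024238, chromosome 18, 5591860 to 5775467), a zinc finger and homeodomain repressor, had 9.43 and 7.25 CPM in PDGFRa-only libraries, 36.0 and 38.3 CPM in double-positive libraries, and 81.7 and 81.4 CPM in PECAM1-only libraries. The order was the reverse of that of Snai1, with no overlap between fractions and replicates close to each other. Zeb1 was lower in PDGFRa-only than in PECAM1-only cells by a log2 fold change of -3.31 (SE 0.21, adjusted p = 3.11e-11, edgeR). It was also lower in double-positive than in PECAM1-only cells (-1.13, SE 0.18, adjusted p = 3.51e-05, edgeR) and lower in PDGFRa-only than in double-positive cells (-2.18, SE 0.22, adjusted p = 3.38e-07, edgeR). Double-positive libraries stood 62.2% and 59.0% of the way from the PECAM1-only to the PDGFRa-only mean on the CPM scale but 36.7% and 33.9% on the log2(CPM + 1) scale, so which single-positive fraction was nearer depends on the scale.

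Zeb2 (ENSMUSG00000026872, chromosome 2, 44983632 to 45117395), the paralog of Zeb1, had 2.24 and 2.11 CPM in PDGFRa-only libraries and 16.0 and 13.8 CPM in PECAM1-only libraries. Double-positive libraries had 7.40 and 16.9 CPM, so that library 2 lay above both PECAM1-only libraries and library 1 below them. Zeb2 was lower in PDGFRa-only cells than in PECAM1-only cells (-2.77, SE 0.39, adjusted p = 3.65e-06, edgeR) and than in double-positive cells (-2.47, SE 0.40, adjusted p = 0.000164, edgeR). The last call was lost in the RPKM values, at -0.32 and adjusted p = 0.195 with limma and a pseudocount of 1. Double-positive and PECAM1-only cells differed by -0.30 (95% interval -0.92 to 0.33, adjusted p = 0.474, edgeR), a difference that passed without double-positive library 2 (-1.01, adjusted p = 0.0463). Zeb2 made up 14.5% to 30.6% of the counts of both ZEB genes in the 6 libraries, the highest share being that of double-positive library 2.

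Twist1 (ENSMUSG00000035799, chromosome 12, 33957671 to 33959829), a basic helix-loop-helix factor of mesoderm and neural crest, had 0.898 and 2.42 CPM in PDGFRa-only libraries, 1.42 and 1.25 CPM in double-positive libraries, and 0.437 and 1.88 CPM in PECAM1-only libraries. These values come from 52 counts in all, and the 3 fractions overlapped. The log2 fold change between PDGFRa-only and PECAM1-only cells was 0.62 with a 95% interval of -0.77 to 2.00 (adjusted p = 0.435, edgeR), and its sign turned without PDGFRa-only library 2 (-0.33) or PECAM1-only library 1 (-0.09).

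**Figure D1:**
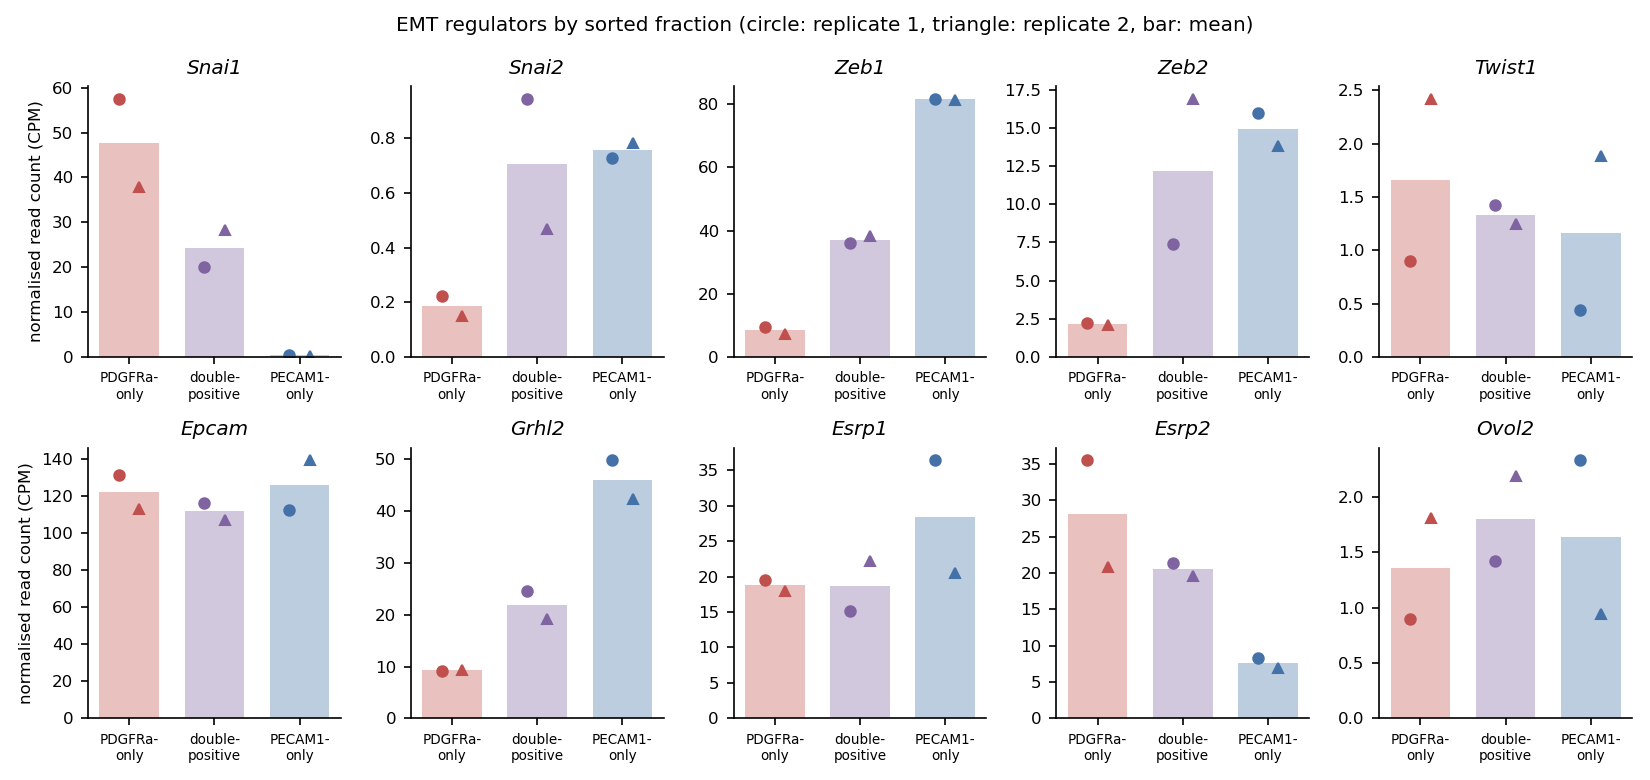
Normalised read count (CPM, linear axes from 0, each panel with its own range) of the 10 regulators in the 3 fractions, with circles for library 1, triangles for library 2 and bars for the mean of 2 libraries. Snai1 and Esrp2 lie higher in the 4 PDGFRa-positive libraries than in both PECAM1-only libraries, Zeb1 and Grhl2 are lowest in PDGFRa-only, intermediate in double-positive and highest in PECAM1-only cells, and Epcam lies between 107 and 139 CPM in every library.

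The epithelial regulators divided as well. Grhl2 fell in PDGFRa-positive cells, Esrp2 rose in them, and Epcam, Esrp1 and Ovol2 gave no call in the main test. Epcam had the highest level per kilobase of exon of the 10 regulators in each fraction, at 55.6 CPM per kilobase in PDGFRa-only, 51.0 in double-positive and 57.4 in PECAM1-only cells.

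Epcam (ENSMUSG00000045394, chromosome 17, 87635979 to 87651129) had 131 and 113 CPM in PDGFRa-only libraries, 116 and 107 CPM in double-positive libraries, and 112 and 139 CPM in PECAM1-only libraries. The spread between PECAM1-only libraries was wider than the distance between the fraction means of 122, 112 and 126 CPM, and the fractions overlapped. The log2 fold change between PDGFRa-only and PECAM1-only cells was -0.04, with a 95% interval of -0.39 to 0.30 (adjusted p = 0.841, edgeR). An interval of this width does not show that the levels were equal. The comparisons with double-positive cells gave -0.17 (double-positive against PECAM1-only, interval -0.51 to 0.17, adjusted p = 0.448) and 0.13 (PDGFRa-only against double-positive, interval -0.22 to 0.47, adjusted p = 0.651, edgeR). The start region shown above was chosen because Epcam differed least between PDGFRa-only and PECAM1-only cells. The part of its E-boxes and grainyhead centres in the level of Epcam was not tested.

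Grhl2 (ENSMUSG00000022286, chromosome 15, 37233036 to 37363569), the grainyhead factor that maintains epithelial adhesion genes, had 9.20 and 9.37 CPM in PDGFRa-only libraries, 24.5 and 19.1 CPM in double-positive libraries, and 49.8 and 42.3 CPM in PECAM1-only libraries. The fractions followed the order of Zeb1 and did not overlap. Grhl2 fell by 2.31 on the log2 scale from PECAM1-only to PDGFRa-only cells (-2.31, SE 0.23, adjusted p = 2.27e-08, edgeR). The step from PECAM1-only to double-positive cells was -1.08 (SE 0.21, adjusted p = 0.000261) and that from double-positive to PDGFRa-only cells -1.23 (SE 0.24, adjusted p = 0.000927, edgeR). Double-positive libraries stood 58.5% and 73.3% of the way from the PECAM1-only to the PDGFRa-only mean on the CPM scale, and 40.0% and 55.9% on the log2(CPM + 1) scale. An epithelial regulator and the ZEB genes, which oppose each other in carcinoma cells, were thus lower in the same fraction.

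Esrp1 (ENSMUSG00000040728, chromosome 4, 11331933 to 11386783) had 19.5 and 18.0 CPM in PDGFRa-only libraries, 15.1 and 22.2 CPM in double-positive libraries, and 36.4 and 20.5 CPM in PECAM1-only libraries. PECAM1-only library 1 stood above the other 5 libraries. The log2 fold change between PDGFRa-only and PECAM1-only cells was -0.61 (95% interval -1.15 to -0.06, adjusted p = 0.0508, edgeR), just outside the threshold of 0.05. It passed in 8 of 16 alternatives, among them the 3 other scalings, at -0.65 with RLE size factors (adjusted p = 0.0378), -0.81 with upper-quartile scaling (0.0119) and -0.90 with library size alone (0.00562). The value was -0.12 without PECAM1-only library 1 (adjusted p = 0.772) and -0.95 without PECAM1-only library 2 (adjusted p = 0.00816, edgeR). Against PECAM1-only cells, double-positive cells also gave -0.61 (interval -1.15 to -0.08, adjusted p = 0.0665, edgeR).

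Esrp2 (ENSMUSG00000084128, chromosome 8, 106130319 to 106136974), the paralog of Esrp1, went the other way, with 35.5 and 20.8 CPM in PDGFRa-only libraries, 21.4 and 19.6 CPM in double-positive libraries, and 8.30 and 6.90 CPM in PECAM1-only libraries. All 4 PDGFRa-positive libraries lay above both PECAM1-only libraries, while PDGFRa-only and double-positive libraries overlapped. Esrp2 was higher in PDGFRa-only than in PECAM1-only cells by 1.87 (SE 0.27, adjusted p = 4.82e-06, edgeR) and higher in double-positive than in PECAM1-only cells by 1.43 (SE 0.27, adjusted p = 0.000261, edgeR). PDGFRa-only and double-positive cells differed by 0.44 (interval -0.07 to 0.95, adjusted p = 0.233, edgeR), which passed without PDGFRa-only library 2 (0.79, adjusted p = 0.0185). Esrp2 made up 64.5% and 53.7% of the counts of both ESRP genes in PDGFRa-only libraries and 58.6% and 46.8% in double-positive libraries. In PECAM1-only libraries the share was 18.6% and 25.1%, with exact 95% intervals of 14.4 to 23.4% and 18.9 to 32.2%, which cover counting error only. Counts per gene do not show the splicing these proteins control.

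Exons of Esrp2 share 219 bases with Nfatc3 on the opposite strand and 119 bases with the transcript 1810019D21Rik (GENCODE M21). The strand setting of the counting is not given in the sources used here, so reads there cannot be assigned with certainty. Nfatc3 had 171 CPM in PDGFRa-only and 218 CPM in PECAM1-only cells (-0.35, adjusted p = 0.0566, edgeR), and 1810019D21Rik had 4.65 and 1.06 CPM (2.07, adjusted p = 0.00205, edgeR). Their part in the Esrp2 difference was not tested. Antisense genes that share exon bases with Zeb1, Zeb2, Grhl2, Esrp1 and Ovol2 and are in the count table had at most 21 counts each over the 6 libraries.

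Ovol2 (ENSMUSG00000037279, chromosome 2, 144305175 to 144332146), a zinc finger repressor of Zeb1 in epithelia, had 0.898 and 1.81 CPM in PDGFRa-only libraries, 1.42 and 2.19 CPM in double-positive libraries, and 2.33 and 0.941 CPM in PECAM1-only libraries. With 61 counts in all, replicates differed more than fractions, and the fractions overlapped. The log2 fold change between PDGFRa-only and PECAM1-only cells was -0.21 with an interval of -1.48 to 1.05 (adjusted p = 0.779, edgeR). Its sign turned without PDGFRa-only library 1 (0.13) and without PECAM1-only library 1 (0.59).

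**Figure D2:**
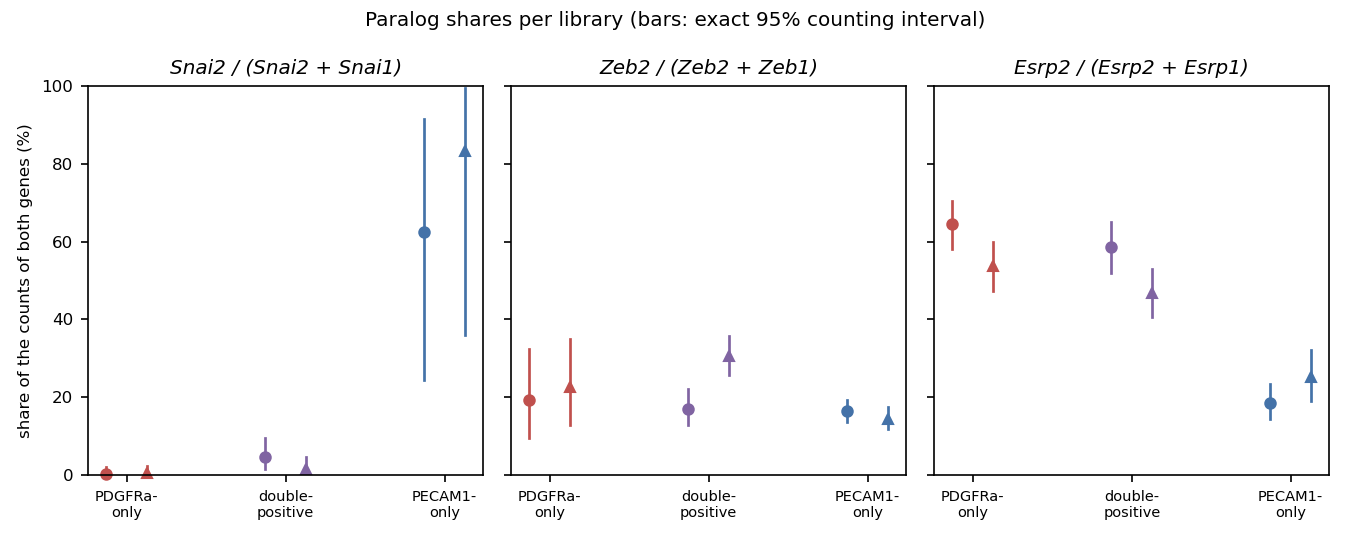
Share of the counts of each paralog pair (%, axes from 0 to 100) taken by Snai2, Zeb2 and Esrp2 in each library, with circles for library 1, triangles for library 2 and bars for the exact 95% counting interval. The Esrp2 share is 46.8% to 64.5% in the 4 PDGFRa-positive libraries and 18.6% and 25.1% in PECAM1-only libraries, while the Zeb2 share stays between 14.5% and 30.6%.

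Counted over the regulators tested, 2 of 9 were higher (Snai1, Esrp2) and 3 lower (Zeb1, Zeb2, Grhl2) in PDGFRa-only than in PECAM1-only cells. The background in that comparison was 59.0% of all 13909 tested genes, 30.1% higher and 28.8% lower, so the share of regulators called was near that of all genes. Between double-positive and PECAM1-only cells, 2 were higher (Snai1, Esrp2) and 2 lower (Zeb1, Grhl2), against a background of 38.2%, with 21.8% higher and 16.4% lower. Between PDGFRa-only and double-positive cells, 1 was higher (Snai1) and 3 lower (Zeb1, Zeb2, Grhl2), against 17.6%, with 5.94% higher and 11.7% lower. The median log2 fold change of the 9 regulators was -0.21, -0.17 and 0.00 in these comparisons, beside 0.01, -0.01 and 0.00 over all genes tested. The comparisons share libraries and are not independent of each other. No regulator was higher in double-positive cells than in both other fractions, or lower than in both, by these tests. The share of all tested genes with such a pattern is not given here, so nothing particular to the regulators is read from this.

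**Figure D3:**
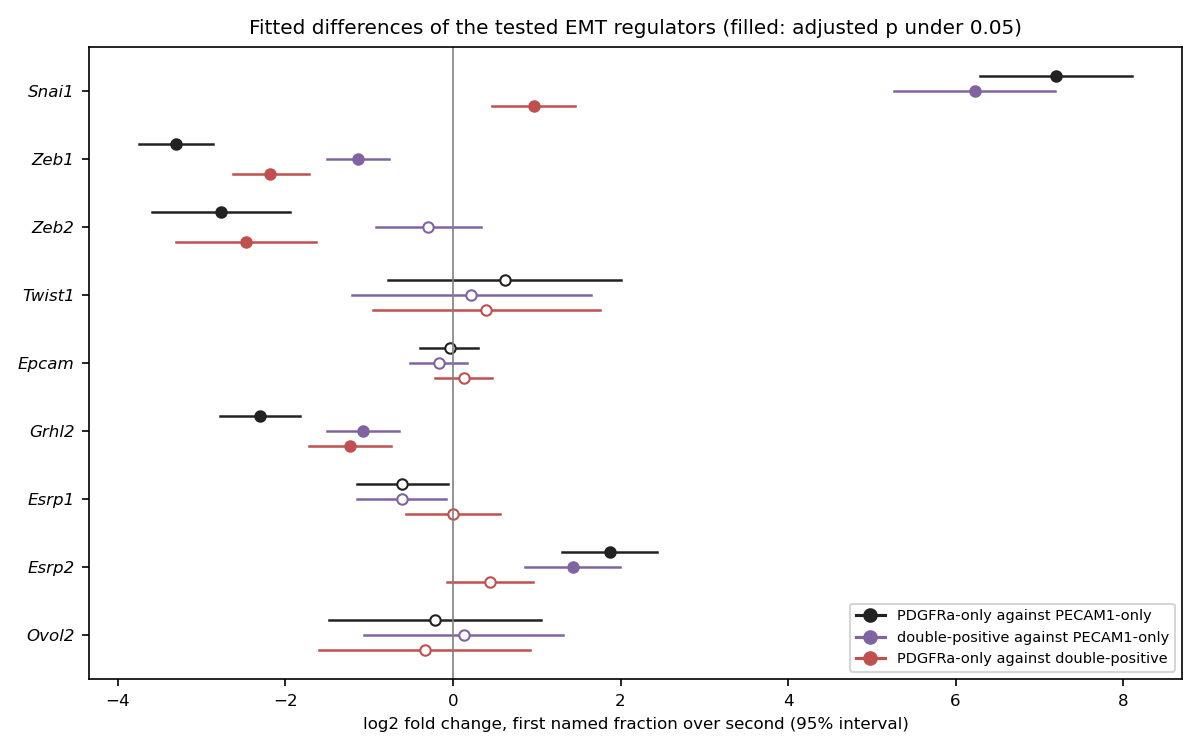
Fitted log2 fold change (points) with its 95% interval (lines) of the 9 tested regulators in the 3 comparisons, filled where the adjusted p was under 0.05. Snai1 reaches 7.20 between PDGFRa-only and PECAM1-only cells, Zeb1 lies at -3.31, Zeb2 at -2.77 and Grhl2 at -2.31, and the intervals of Epcam, Twist1 and Ovol2 span 0 in every comparison.

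Genes with the most similar patterns over the 6 libraries were sought among 10418 tested genes of at least 5 CPM on average, by the distance between centred log2(CPM + 1) profiles. Snai1 lay nearest to Col27a1, which encodes a fibrillar collagen (distance 0.316), and Pdlim4 (0.430). Zeb1 lay nearest to Dock11, a guanine nucleotide exchange factor gene (0.206), and Mtap7d3 (0.220). The added 1 CPM compresses low levels, so genes with near profiles can differ in fold change. Mtap7d3 had 0.488 CPM in PDGFRa-only and 11.4 CPM in PECAM1-only cells, where Zeb1 had 8.34 and 81.5 CPM. Grhl2 lay nearest to Zmym3 (0.156) and to Mdn1, a ribosome assembly ATPase gene (0.171), and Esrp2 to Parp4 (0.147) and Tpbg (0.180). Zeb2 lay nearest to Prtg (0.486) and Grb10, an imprinted adaptor gene (0.647). Epcam lay nearest to Fbxo42 (0.0955) and Mrpl11 (0.125), both of which also varied little. Esrp1 lay nearest to Dus2l (0.402), Twist1 to Fam216a (0.409) and Ovol2 to Akirin1 (0.323), profiles set largely by the difference between replicates.

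Genes that carry out epithelial or mesenchymal functions, called effectors here, were described from lists. Whether these regulators control them in these cells was not tested. Cdh1, the classical target of SNAIL and ZEB repression, had 320 CPM in PDGFRa-only, against 463 CPM in PECAM1-only cells. It was lower by -0.53 on the log2 scale (adjusted p = 0.00719, edgeR), a call that was lost without PECAM1-only library 2 (-0.46, adjusted p = 0.0635). Cdh2, the gene of N-cadherin, which replaces E-cadherin in a typical transition, had 1.05 and 1.13 CPM (-0.28, adjusted p = 0.764, edgeR). Of 25 epithelial effectors tested of 30, 13 were higher and 7 lower in PDGFRa-only cells, or 80% called against the background of 59.0% (30.1% higher and 28.8% lower). The lower ones numbered 3 without PECAM1-only library 2. Of those higher, the keratin genes Krt8 (7.76 on the log2 scale), Krt18 (6.36) and Krt19 (4.50) had the smallest p. Their adjusted p were 1.13e-13, 2.23e-13 and 2.22e-11 (edgeR). Ap1m2 (4.96) and Cldn6 (4.85) were higher by more than Krt19. The low level of Krt8 in PECAM1-only cells rests on 2 counts in each library. The polarity gene Llgl2 (-1.80) and the claudin gene Cldn4, at 0 counts and at least 21.5-fold lower, were among those lower.

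Of 17 mesenchymal effectors tested of 25, 7 were higher and 5 lower in PDGFRa-only cells. This is 70.6% called against 59.0% of all genes (30.1% higher and 28.8% lower). The lower ones numbered 3 without PECAM1-only library 2. Sparc, a matrix glycoprotein gene abundant in parietal endoderm, had 11800 CPM against 305 CPM (5.27, adjusted p = 1.97e-14, edgeR), and Loxl2, a collagen crosslinking enzyme gene, rose by 4.35 (adjusted p = 6.18e-12, edgeR). Vim, the gene of the filament protein vimentin, fell (-2.35, adjusted p = 7.24e-11, edgeR), as did the fibronectin gene Fn1 (-2.46, adjusted p = 3.52e-10, edgeR), the protease gene Mmp2 (-4.26, adjusted p = 1.57e-07, edgeR) and Tgfbi (-3.16, adjusted p = 0.00062, edgeR). The Tgfbi call was lost without PECAM1-only library 2 (-2.01, adjusted p = 0.0542). Serpine2, a protease inhibitor gene, was the fifth (-0.51, adjusted p = 0.0413, edgeR); its call was lost with DESeq2 (adjusted p = 0.0526) and without PDGFRa-only library 2 (-0.19, adjusted p = 0.429), either PECAM1-only library or either double-positive library. Both lists held genes called in each direction, as did all genes tested. Their medians were 0.55 and -0.28, beside 0.01 for all genes tested. The mesenchymal median was 0.57 without PDGFRa-only library 2 and 0.38 with a minimum count of 30. Between double-positive and PECAM1-only cells, 10 of the 25 epithelial effectors were higher and 3 lower, among them Llgl2 and Cldn4. Of the 17 mesenchymal effectors, 6 were higher and 2 lower (Fn1, Vim). This is 52% and 47.1% called against 38.2% of all genes (21.8% higher and 16.4% lower). The lower calls there numbered 2 to 6 and 1 to 4 over the alternatives run on the counts.

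Other transcription factors of the transition included 12 tested of 22, of which 4 were higher (Elf3, Foxa2, Klf5, Klf8) and 5 lower (Grhl1, Grhl3, Tcf3, Tcf4, Sox4) in PDGFRa-only cells, or 75% called against 59.0% of all genes; 3 were lower without PECAM1-only library 2. Both other grainyhead genes were lower with Grhl2: Grhl1 had 0.527 against 5.09 CPM (-3.19, adjusted p = 4.89e-05, edgeR), and Grhl3 had 0 and 2 counts in PDGFRa-only libraries against 62.4 CPM, lower by a ratio of 347 (counting interval 95.6 to 2870). Elf3, an epithelial ETS factor gene, was higher by 2.62 (adjusted p = 1.39e-09, edgeR), and Foxa2, an endoderm factor gene, was at least 157-fold higher than the floor of 3 counts that a count of 0 in both PECAM1-only libraries allows. Among 12 genes of SNAIL and ZEB corepressors, 8 were lower and 2 higher, with a median of -1.16, where 28.8% of all genes were lower and 30.1% higher. Ctbp2, a partner of ZEB proteins, was lower by -2.35 on the log2 scale (adjusted p = 2.08e-09), the Polycomb enzyme gene Ezh2 by -1.25 (1.04e-06), and the corepressor gene Rcor1 was higher (1.36, adjusted p = 9.78e-07, edgeR), with the methyltransferase gene Ehmt2 (0.89, adjusted p = 0.000233, edgeR).

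Of 11 tested genes of Epcam partners and proteases, 8 were higher in PDGFRa-only cells and none lower, with a median of 1.79, where 30.1% of all genes were higher and 28.8% lower; Epcam itself gave no call. With upper-quartile scaling and with library size alone, 1 was lower. Adam10, a protease gene, rose by 2.50 (adjusted p = 1.68e-10, edgeR), and Fhl2, a gene of an adaptor that binds the EPCAM tail, had a ratio of 61.8 (counting interval 20.8 to 303) over 3 counts in PECAM1-only cells (adjusted p = 1.47e-09, edgeR). Among 14 tested genes of splicing partners and targets of ESRP proteins, 6 were higher and 3 lower (64.3% called, against 59.0% of all genes), with a median of 0.28 that was -0.01 with library size alone, where 5 were lower. Rbm47 (2.85, adjusted p = 3.87e-11), Mbnl2 (2.99, 7.44e-11) and Fgfr2 (2.81, 1.31e-10), the last a transcript whose exon choice ESRP proteins control, were the most clearly different (edgeR). Srsf1, Enah and Rbfox2 were the 3 that were lower.

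**Figure D4:**
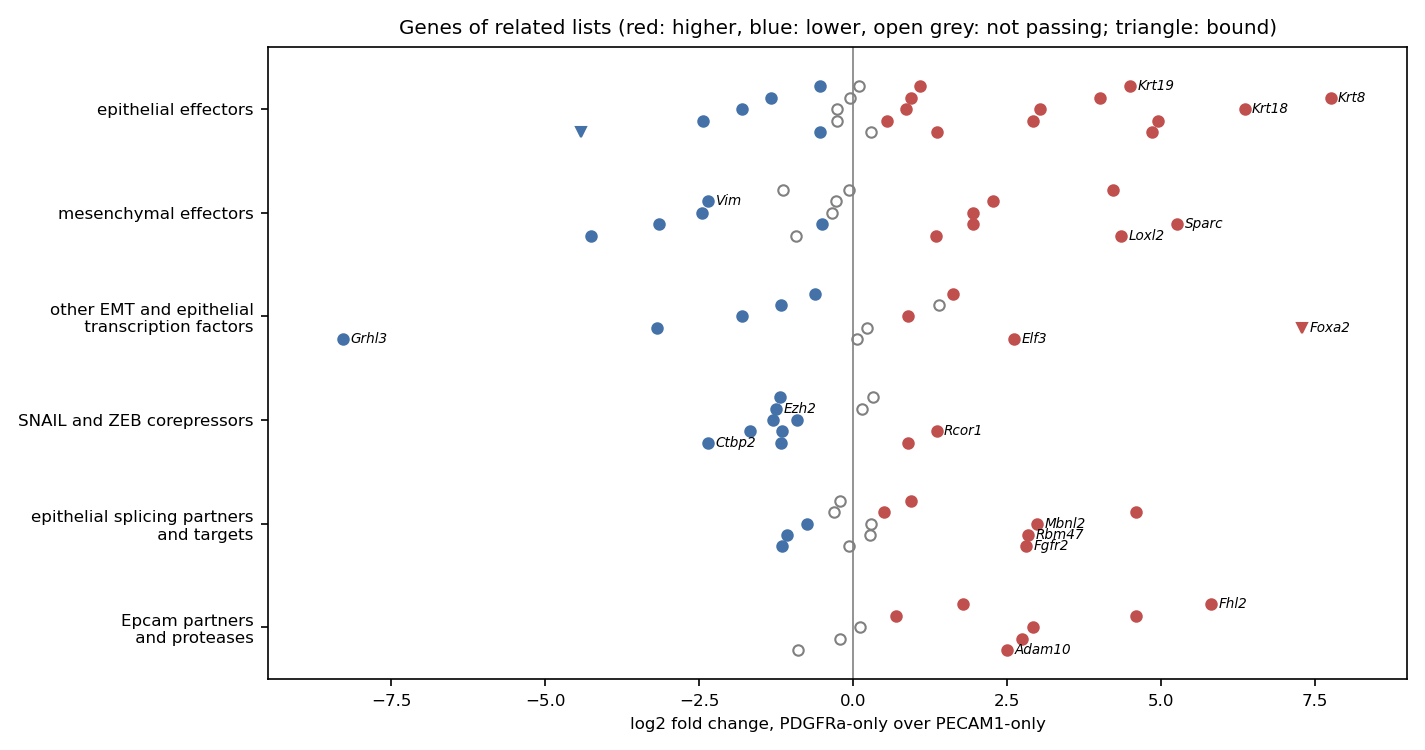
Log2 fold change between PDGFRa-only and PECAM1-only cells of the tested genes of 6 lists, with red for higher, blue for lower, open grey for genes that did not pass, and triangles for genes drawn at the bound set by 3 counts (Cldn4 and Foxa2). Each point is 1 gene, up to 3 genes with the smallest p of each list are named, genes not reported here are not drawn, and the points of both effector lists lie on both sides of 0.

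Markers of other cell types, some of which use these regulators, were mostly low. The 8 fibroblast markers summed to 3.59 to 7.86 CPM in PDGFRa-only, 5.19 to 8.14 CPM in double-positive and 2.91 to 3.61 CPM in PECAM1-only libraries, and Thy1 and Postn had 0 counts in PDGFRa-only libraries. Col1a2, a fibrillar collagen gene of the same list, was higher in PDGFRa-only than in PECAM1-only cells, with 37 against 2 counts, a ratio of 22.1 (counting interval 5.71 to 190, adjusted p = 0.000293, edgeR). It was also higher in double-positive cells (35 against 2 counts, adjusted p = 0.00112, edgeR). Other genes of the list did not follow Col1a2. Between PDGFRa-only and PECAM1-only cells, Col1a1 had 3 against 12 counts and Col3a1 2 against 3, and neither was tested. Pdgfrb, the only other tested gene of the list, gave no call, where 30.1% of all genes were higher. The 9 gastrulation mesoderm markers summed to 5.89 to 8.76, 12 to 12.3 and 11.8 to 15 CPM in that order. Most of each sum was Eomes, with 28 to 73 counts per library, the only tested gene of the list, which gave no call. T, the defining brachyury gene, had at most 1 count per library. The 8 neural and neural crest markers summed to 10.3 to 11.4, 27.1 to 36.6 and 68.2 to 68.7 CPM, the order of Zeb1 and Grhl2. Their part in those differences was not tested. The neural crest gene Sox10 had at most 1 count per library. Foxd3 of the same list had 43 and 18 counts in PECAM1-only, 19 and 6 in double-positive and 0 in PDGFRa-only libraries. All 5 tested genes of the list (Nes, Pax6, Tubb3, Foxd3, Sox1) were lower in PDGFRa-only than in PECAM1-only cells. Of all genes tested, 28.8% were lower there. The 10 endothelial and blood markers summed to 84.9 to 134, 68.4 to 84.5 and 15.4 to 16.3 CPM, high in the fractions where Snai1 and Esrp2 were high. Most of the sum was Cdh5 in the PDGFRa-positive libraries and Tek in PECAM1-only libraries, where Cdh5 had 0 and 1 counts. Cdh5 and Kdr, a growth factor receptor gene, were called higher in both PDGFRa-positive fractions than in PECAM1-only cells. Kdr had 10.8 CPM in PDGFRa-only and 10.9 CPM in double-positive cells against 0.526 CPM. They were 2 of 3 tested genes of the list, where 30.1% and 21.8% of all genes were higher. Tek, the other tested gene, gave no call, with 9.93 and 10 against 13.1 CPM. Tal1 and Gata1, not tested, had 0 counts in PDGFRa-only cells against 13 and 10 in PECAM1-only cells. Ptprc, Erg and Emcn had 0 counts in all libraries, and the part of fibroblast, endothelial or blood cells in the Snai1 and Esrp2 differences was not tested. The 8 trophoblast markers summed to 6.34 to 8.98, 19.5 to 23.3 and 44.5 to 45.2 CPM, most of it Tfap2c and Eomes, with at most 3 counts of Cdx2 per library.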

How the data were processed

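Total RNA of sorted ESC fractions was amplified and sequenced; the submitters' processing notes name, without role or order, HTSeq 0.5.4p3, TopHat2 2.0.8b, Bowtie2 2.1.0, cutadapt 1.2.1 and the build GRCm38, and the strand setting and annotation release are not given in the sources used here. Raw, unnormalized counts for Ensembl genes were deposited. How the authors made the deposited RPKM is not given in the sources used here: its largest value is the same in all 6 libraries. It served as an alternative only, and Snai2 has no row in it.

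Counts were tested with edgeR 4.0.16 in R 4.3.3; DESeq2 1.42.0 and limma 3.58.1 served alternatives, and figures used matplotlib 3.10.9. The filterByExpr filter (minimum count 10) passed 13909 of 38561 genes, which were scaled by TMM and fitted robustly with 1 mean per fraction over all 6 libraries (3 residual degrees of freedom, biological coefficient of variation 13.5%). Tests were two-sided quasi-likelihood tests with Benjamini-Hochberg adjustment over all tested genes and a threshold of 0.05. SE is the size of the fitted log2 fold change divided by the square root of F. An exact permutation of 2 against 2 libraries cannot go below p = 0.333 and was not used. Where a fraction had 0 counts, a fold is a lower bound against 3 counts over that fraction; with 1 to 3 counts, the ratio has an exact 95% interval. No molecular identifiers are named for these amplified reads, so floors and intervals cover counting error only. The scripts were tested on simulated data.

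Coordinates, exon lengths and overlaps came from GENCODE M21 (GRCm38) and start regions from RefSeq (GRCm38.p6). Patj and Pals1 are listed in the counts as Inadl and Mpp5. A symbol with several identifiers stands for the one with most counts. The members, lists and motifs were chosen with earlier results of these data known. Named were all 10 regulators, the gene with the nearest profile of each tested regulator and, for most of them, the next nearest. Of each list other than the cell type markers, the 3 genes with the smallest p between PDGFRa-only and PECAM1-only cells were named. Genes behind a main count of 5 or fewer were named too, in both cases apart from genes not reported here. Cdh1, Cdh2 and the single marker genes were added after their values were seen. Single values of 2 listed genes are not reported here.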

Additional observations from a re-analysis of the deposited data

How the results depend on the processing

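Across 16 alternatives, 134 of 144 counts of calls stayed within 1.5 times the main count, and 374 of 423 log2 fold changes of single regulators kept their direction and side of the threshold. Snai1, Zeb1, Zeb2, Grhl2 and Esrp2 kept their calls between PDGFRa-only and PECAM1-only cells in all 16. Of the others, 6 lost their call (Snai1 and Zeb2 between PDGFRa-only and double-positive cells), 15 gained one (Esrp1, Zeb2, Esrp2) and 28 turned sign; the cause was not tested. Twist1 and Ovol2 gave no value under some filters. Between PDGFRa-only and double-positive cells, the regulators called higher numbered 0 to 2 when 1 library was left out and 0 with RPKM at either pseudocount, while all genes called numbered 1269 to 2885 and, with RPKM, 773 (pseudocount 1) and 940 (pseudocount 0.1) against 2450. Regulators called lower between double-positive and PECAM1-only cells numbered 2 to 4 when 1 library was left out. Where a fraction was left with 1 library, it was assumed to vary like the others. Values that were not called turned sign as follows. For PDGFRa-only against PECAM1-only cells, leaving out 1 library gave Ovol2 -0.87 to 0.59, Twist1 -0.33 to 1.96 and Epcam -0.17 to 0.13, and RPKM gave Ovol2 0.06 and 0.21. For double-positive against PECAM1-only cells, Ovol2 had -0.04 with upper-quartile scaling and -0.09 with library size alone, and leaving out 1 library gave Ovol2 -0.35 to 0.94, Twist1 -0.47 to 1.58, Epcam -0.30 to 0.00 and Zeb2 -1.01 to 0.20. For PDGFRa-only against double-positive cells, Esrp1 (0.00) had -0.04 with upper-quartile scaling, -0.07 with library size alone, -0.01 without a count filter and with a minimum count of 30, and -0.02 in a fit of these 2 fractions, and leaving out 1 library gave Esrp1 -0.25 to 0.31, Ovol2 -0.99 to 0.01 and Twist1 -0.56 to 0.85. Upper-quartile scaling and library size alone moved the median of all genes by -0.205 and -0.287 between PDGFRa-only and PECAM1-only cells. Without a count filter Snai2 gave -1.92 there (adjusted p = 0.190, edgeR). Whether the replicate numbers pair the libraries was not settled: the labels call them Exp1 and Exp2 without saying what is shared, and deviations of same-numbered libraries correlated across 13909 genes with r of -0.0329 (PDGFRa-only and PECAM1-only), 0.160 (PDGFRa-only and double-positive) and 0.204 (PECAM1-only and double-positive). With the replicate number as a block, 8397, 5644 and 2834 genes were called against 8205, 5319 and 2450, the regulators called were as many (2 and 3, 2 and 2, 1 and 3, higher and lower), and Esrp1 between PDGFRa-only and double-positive cells had 0.00 with the sign turned. Depth limits Snai2, Twist1 and Ovol2, with 21, 52 and 61 counts in all.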

Other observations

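Of 32851 start windows searched, 1 held at least 2 E-boxes and at least 2 grainyhead centres, that of Epcam, and 147 (0.447%) held at least 1 of each. The criterion was chosen after the Epcam window had been seen, and windows of the same gene can overlap.

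TGF-beta is the best-known inducer of the transition. Its ligand genes Tgfb1, Tgfb2 and Tgfb3 had at most 10 counts per library and were not tested. Of the 9 other genes of the list, 4 were higher and 3 lower in PDGFRa-only than in PECAM1-only cells, or 77.8% called against 59.0% of all tested genes. The receptor gene Tgfbr2 had 80.8 against 0.829 CPM (6.57, adjusted p = 6.31e-14, edgeR), and the co-receptor gene Tgfbr3 was higher by 3.51 (adjusted p = 4.22e-10, edgeR). Skil, a gene of an inhibitor of SMAD proteins, was lower (-1.34, adjusted p = 1.84e-06, edgeR). Smad2 and Smad7 were the other genes that were higher, and Ski and Smad3 the others that were lower; with library size alone 5 were lower. Genes that control the stability of the SNAIL protein numbered 4 higher and 4 lower of 10 tested, where 30.1% of all genes were higher and 28.8% lower. Gsk3b, the gene of the kinase that marks SNAIL for degradation, was higher in PDGFRa-only cells (1.04, adjusted p = 8.39e-06), as was Usp27x, the gene of a deubiquitinase that stabilises it (1.71, adjusted p = 1.49e-05, edgeR), with Fbxw11 and Lats2. Csnk1a1 was lower (-0.76, adjusted p = 0.000298, edgeR), with Btrc, Fbxl14 and Pak1. Without PECAM1-only library 2, 2 were higher and 3 lower. The level of SNAIL protein was not measured.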
